A study of Homo sapiens with 10 samples.

Results

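The 2 libraries labelled DMSO, of the 10 libraries in the series, were described as a picture of gene expression and splicing in A549 cells given the vehicle. A549 is a human lung adenocarcinoma cell line. The series has 5 conditions with 2 libraries each, and the other 8 libraries come from A549 cells given DRB or α-amanitin and were not analysed here. Both DMSO libraries were chosen by their treatment label, no drug was added that the labels name, and no source used here gives how long DMSO was applied. Nothing in the labels says whether the 2 replicates came from separate cultures, so a difference between these 2 libraries may be technical. Every p-value below weighs such a difference against counting error only, and compares libraries and not conditions.

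Splicing removes introns from the precursor RNA and joins exons. The spliceosome recognizes a donor site, nearly always GT, at the start of an intron, and an acceptor site, nearly always AG, at its end. A minor spliceosome removes a small class of introns with their own conserved donor sequence. Cells choose between alternatives by skipping an exon, by moving to another donor or acceptor, or by leaving an intron in. Exons that bring in a premature stop codon mark the transcript for nonsense-mediated decay (NMD), a pathway that degrades it, and many splicing factors carry such exons. A549 cells are an epithelial line often used as a model of the alveolar type II cell, which makes surfactant, and they carry a mutation of KEAP1, which leaves the antioxidant transcription factor NRF2 active.

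Poly(A)+ RNA was sequenced with reads of 75 bp from strand-specific libraries. Each deposited library lists introns with the number of split reads, which cross the splice junction, and of unspliced reads at the donor and at the acceptor. It lists exons with the numbers of reads that support inclusion (inc) and skipping (exc). The libraries held 4297890 split reads in replicate 1 and 4765752 in replicate 2. They listed 74739 and 75422 introns, and 65234 of the 84927 introns listed in either library (76.8%) were in both. No count above 0 was below 3, and introns were rarely listed with few reads. In replicate 1, 611 introns had 10 split reads and 3448 had 11, and in replicate 2 the numbers were 516 and 3284. Introns found in 1 library had a median of 12 split reads, so a missing intron may lie under the listing minimum and was not read as absent. Of the introns, 82375 (97.0%) were in the GENCODE annotation, and they took 99.4% of the split reads in both libraries. GT-AG ends were found in 83547 introns, GC-AG ends in 729 and AT-AC ends in 96. Intron coordinates below are those of GRCh37, as deposited, and run from the last base of one exon to the first base of the next.

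The most abundant spliced transcripts encoded the translation machinery, glycolytic enzymes, cytoskeletal proteins, chaperones and ferritin. Split reads were summed over the introns of each gene and divided by the reads assigned to genes, and are given per 1000000 of them (RPM). At least 10 reads in both libraries were found for 8304 genes, of which 8041 (96.8%) were protein coding, 110 were lncRNA genes and 149 were pseudogenes. EEF1A1, the elongation factor that brings aminoacyl-tRNA to the ribosome, had 90313 and 95212 split reads, or 20653 ± 739.6 RPM (SD, n = 2), which was 2.07% of all. The next sums were those of ENO1 (6283 ± 437 RPM), GAPDH (5726 ± 51.5), NPM1 (4951 ± 605), PKM (4493 ± 549), RPL13A (4213 ± 65.6), RPLP0 (4191 ± 244), RPL4 (4068 ± 140.02), HSP90AA1 (3761 ± 1167) and RPS18 (3699.6 ± 241), all SD, n = 2. ENO1, GAPDH and PKM are enzymes of glycolysis, NPM1 is a nucleolar chaperone of ribosome assembly, and HSP90AA1 is a cytosolic heat shock protein. HSP90AA1 had by far the widest spread of these, at 2935 RPM in replicate 1 and 4586 in replicate 2. The sums of ranks 11 to 20 belonged to ANXA2, LDHA, FTH1, EEF1G, RPL17, EEF2, EIF4G2, ALDH1A1, ACTG1 and RPLP1, and lay between 3139 and 3665 RPM. The 20 genes together held 9.59% of the split reads, 100 genes held 24.9%, 525 genes held 50%, and 1000 genes held 62.6%.

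A sum of split reads grows with the number of introns, so genes were compared with each other by the mean RPM per junction of their best annotated transcript, called the level below. Introns shared by overlapping genes are left out of the sums but count in the level. EEF1A1 was again first, at 3025 in replicate 1 and 2875 in replicate 2. FTH1, the ferritin heavy chain that stores iron, followed at 1199 and 1094. RPLP1, a protein of the ribosomal stalk, came next at 1071 and 1007, and none of these 3 pairs of values overlapped with the next. The next 4 genes, RPS18 to GAPDH, overlapped each other, and so did RPL37 and PPIA. RPS18 had a level of 739 ± 48.2, TMSB10, which binds actin monomers, 719.6 ± 27.98, RPS16 718 ± 1.13, GAPDH 715 ± 6.37, RPL37 669.5 ± 39.4, PPIA 669 ± 9.78 and ACTG1 615 ± 30.9 (SD, n = 2). The order below EEF1A1 depended on how junctions were averaged. With the median over all annotated introns of a gene listed in both libraries, in which rare introns count as much as deeply read ones, FTH1 came to 751, below RPLP1 (920), GAPDH (812) and RPL37 (807), and PPIA to 9.18. Over the 8304 genes the median level was 4.85, and the 10th and 90th percentiles were 0.987 and 26.3. Levels of 10 or more were reached by 2272 genes and levels of 100 or more by 194. The 83 genes of ribosomal proteins with reads took 12.7% of the split reads and made up 45 of the first 100 genes by sum and 27 of the first 100 by level. Many of these abundant genes have processed pseudogenes or near-identical paralogs, and how the authors' counting shared reads among such copies was stated in no source used here. ALDOA shows what shared introns do, with 345 and 451 reads in its sum but a level of 105 ± 5.16 from introns that an overlapping gene also uses.

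**Figure D1:**
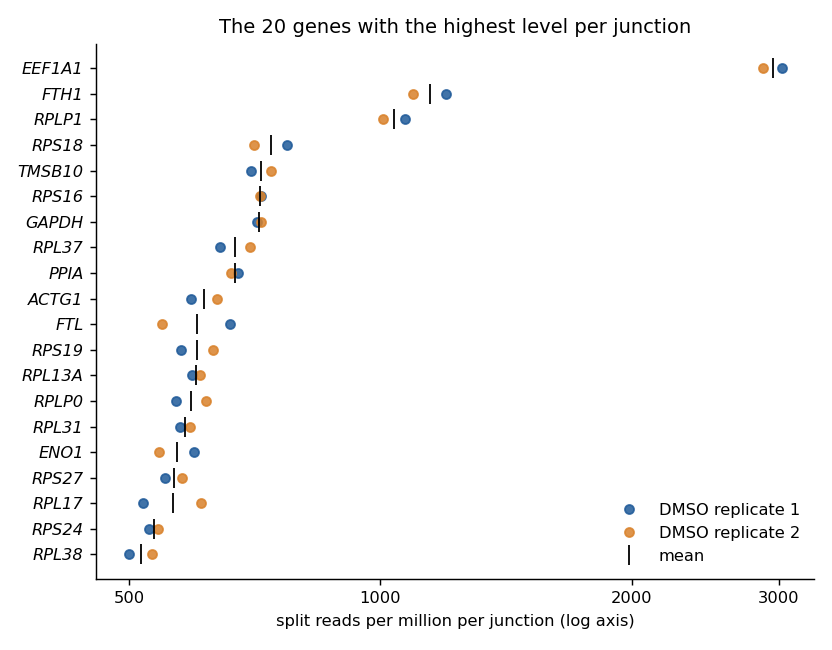
Levels of the 20 genes with the highest level, in RPM per junction (horizontal log axis), with 1 point per DMSO library and a bar at the mean of the 2. EEF1A1 stands apart at 3025 and 2875, FTH1 and RPLP1 follow above 1000, and the remaining 17 genes lie between 500 and 773.

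Among spliced lncRNAs, host genes of small nucleolar RNAs came first. The 110 lncRNA genes with at least 10 reads in both libraries held 0.466% of the assigned reads. SNHG5 had a level of 354 in replicate 1 and 331 in replicate 2 and stood at rank 61 among all genes. SNHG29 had 73.7 and 61.4, GAS5 55.5 and 32.2, SNHG32 36.9 and 32.3, and SNHG19 36.6 and 31.1. A gene without a symbol, ENSG00000291105, had a level of 53.5 and 51.1 from introns that it shares, with 39 and 24 reads of its own. GAS5, whose introns hold small nucleolar RNAs and whose spliced RNA is turned over by NMD, had the widest spread of these, with 2720 and 1767 split reads. The levels of ZFAS1, SNHG6 and SNHG16 were 31.5 ± 5.33, 30.7 ± 3.24 and 26.3 ± 0.328 (SD, n = 2).

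The labelled line was compared with marker genes of lung epithelium and of other cells that a culture could hold. Of the epithelial markers, the keratins KRT18 (levels of 74.0 and 85.8), KRT7 (62.3 and 51.4) and KRT8 (44.2 and 44.5) and the mucin MUC1 (2.31 and 1.96) were found, while KRT19, EPCAM and CDH1 had no listed intron and were not analysed here. Of the mesenchymal markers, VIM, an intermediate filament protein, was at 217 and 190.4, CDH2 at 8.53 and 6.47 and ZEB1 at 3.22 and 2.51, and FN1 had no listed intron. Keratins and vimentin were thus high side by side. None of the 8 alveolar type II markers was listed in both libraries, and ABCA3, a lipid transporter of lamellar bodies, had 11 reads in replicate 1 alone. The surfactant protein genes SFTPA1, SFTPB, SFTPC and SFTPD had no listed intron. None of the 5 immune, 4 endothelial and 3 erythroid markers had a listed intron. Of 6 fibroblast markers, COL1A1, a chain of type I collagen, was listed, while COL1A2, COL3A1, DCN, LUM and PDGFRA were not. COL1A1 had 677 reads in replicate 1 and 59 in replicate 2, at levels of 3.17 and 0.249. Of its introns, 39 were listed in replicate 1 and 5 in replicate 2, and those listed in both had 129 and 59 reads. In RNA from a whole culture, fewer cells of a type and less RNA per cell cannot be told apart.

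Targets of NRF2, which detoxify electrophiles and supply reducing power, were expressed throughout. All 22 genes of the list had at least 10 reads in both libraries, with a median level of 16.2 beside 4.85 over all genes, and 5 of 22 reached 100. Those 5 were FTH1, FTL (603 ± 79.8), the quinone reductase NQO1 (289.8 ± 23.9), the thioredoxin reductase TXNRD1 (166 ± 6.54) and the transketolase TKT (129 ± 24.3), all SD, n = 2. In the pentose phosphate pathway TALDO1 was at 42.4 ± 0.879 and PGD at 29.99 ± 3.07 (SD, n = 2). Heme oxygenase, HMOX1, was at 35.3 and 34.9. The glutathione synthesis genes GCLM and GCLC were at 9.35 ± 1.23 and 7.37 ± 0.958 (SD, n = 2). The aldo-keto reductases AKR1C1, AKR1C2 and AKR1C3 are paralogs of similar sequence, AKR1C1 and AKR1C2 being the closest, so their split is uncertain. AKR1C2 was at 23.7 in replicate 1 and 10.5 in replicate 2. The lowest member was the drug exporter ABCC1, at 1.32 and 0.359. Its level is a mean over 30 junctions, in which introns under the listing minimum count as 0. Over its introns listed in both libraries it had 41 and 25 reads. Of 7 aldehyde dehydrogenases 4 were listed, led by ALDH1A1, which oxidizes retinal, at 280 and 261. ALDH3A2 was at 16.5 ± 0.296, ALDH7A1 at 15.9 ± 2.76 and ALDH1A3 at 4.64 ± 0.591 (SD, n = 2), and ALDH1A2, ALDH2 and ALDH3A1 had no listed intron.

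Other groups with high levels were glycolysis, the cytoskeleton and chaperones. Of 17 glycolytic genes 14 were listed and 8 reached a level of 100, with a median of 107. After GAPDH (715 ± 6.37) and ENO1 (570.4 ± 39.8) came LDHA (501 ± 0.367), PKM (441 ± 54.3), LDHB (271 ± 4.20), PGAM1 (146 ± 29.1) and TPI1 (109 ± 0.597), all SD, n = 2. The hexokinase HK1 was at 3.83 and 4.09, and HK2, ALDOC and ENO2 had no listed intron. Of 21 cytoskeletal genes 11 reached 100, led by ACTG1, ACTB (449 ± 25.7), TUBA1B (413 ± 55.9) and the actin-binding PFN1 (403 ± 22.0), SD, n = 2. Tubulin and actin genes have close paralogs and their split is uncertain. Of 21 chaperone genes 19 were listed, with a median level of 79.0. HSP90AB1 (254 ± 32.5), HSPA8 (228 ± 72.2) and CALR (169 ± 9.02) followed HSP90AA1 (376 ± 116), all SD, n = 2. HSPA1A and HSPA1B, the stress-induced HSP70 genes, have no introns and cannot be seen in split reads.

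The genes that control splicing differed widely in level. Of 24 hnRNP genes 22 were listed, with a median level of 44.6. HNRNPA1 (356 and 307), HNRNPA2B1 (223 and 222) and HNRNPC (142 and 159.6) were the highest, and PTBP2, the neuronal relative of PTBP1, had no listed intron while PTBP1 was at 41.4 and 37.997. Of 14 SR protein genes 13 were listed, with a median of 35.01. SRSF3 (118 and 143), SRSF7 (70.8 and 94.5) and SRSF9 (58.9 and 64.2) led, and SRSF12 was lowest at 2.58 and 2.96. Of 19 regulators known for tissue-restricted splicing 8 were listed, and their median level was 5.25. KHDRBS1 was at 32.9 ± 3.66, MBNL1 at 5.80 ± 0.315, RBFOX2 at 5.62 ± 0.0213, CELF1 at 5.29 ± 0.193 and QKI at 5.21 ± 0.0686 (SD, n = 2). The epithelial regulators ESRP1 and ESRP2, the neuronal NOVA1, NOVA2, SRRM4, RBFOX1 and RBFOX3, and the muscle regulator RBM20 had no listed intron.

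Exon inclusion was close to 0 or 1 for nearly all exons. The inclusion rate (Ψ) was computed as inc/(inc + 2 × exc), in which a skipping read counts 2 times because an included internal exon can be seen at both of its junctions. With a denominator that reached 10 in both libraries, 189118 exons were measured, and 158910 of them (84.0%) had no skipping read in either library. Ψ was under 0.05 in both libraries for 19833 exons (10.5%). Between 0.05 and 0.95 in both, called intermediate below, were 4800 exons (2.54%), and 2517 (1.33%) lay between 0.2 and 0.8 in both. Exons that overlap share reads, and with 1 exon per overlapping set 2212 intermediate exons were left. No read count above 0 was below 3, so a Ψ of 0 or 1 can hide reads under that minimum.

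The share of intermediate exons differed between classes of exons. Of 80607 internal coding exons 1557 (1.93%) were intermediate and 93.9% were over 0.95 in both libraries. Of 2346 internal exons of 5' UTRs 294 (12.5%) were intermediate and 48.5% were under 0.05. Internal exons annotated in NMD transcripts alone numbered 4409, with 216 (4.90%) intermediate, and other noncoding exons 6285, with 277 (4.41%). The split reads at the ends of an exon were uneven in many of them. The upstream and the downstream end differed over 3-fold in 452 of the 1557 intermediate coding exons (29.03%) and in 170 of the 294 of 5' UTRs (57.8%), and Ψ is then no share of transcripts that hold the whole exon. Length went with inclusion as well. Among coding exons of 3 to 15 nts 19 of 164 (11.6%) were intermediate, among those of 16 to 27 nts 30 of 466 (6.44%), among those of 28 to 50 nts 4.497%, among those of 51 to 100 nts 2.31%, among those of 101 to 200 nts 1.49%, and among those over 200 nts 1.68%. The median denominators lay between 42.5 and 49 up to 200 nts and at 36.5 over 200 nts. Exon length was a multiple of 3 in 39.5% of all internal coding exons, in 873 of 1557 intermediate ones (56.1%), in 452 of 767 (58.9%) at 0.2 to 0.8, and in 1053 of 1606 (65.6%) under 0.05. The share of exons that keep the reading frame was thus higher in each class with more skipping.

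**Figure D2:**
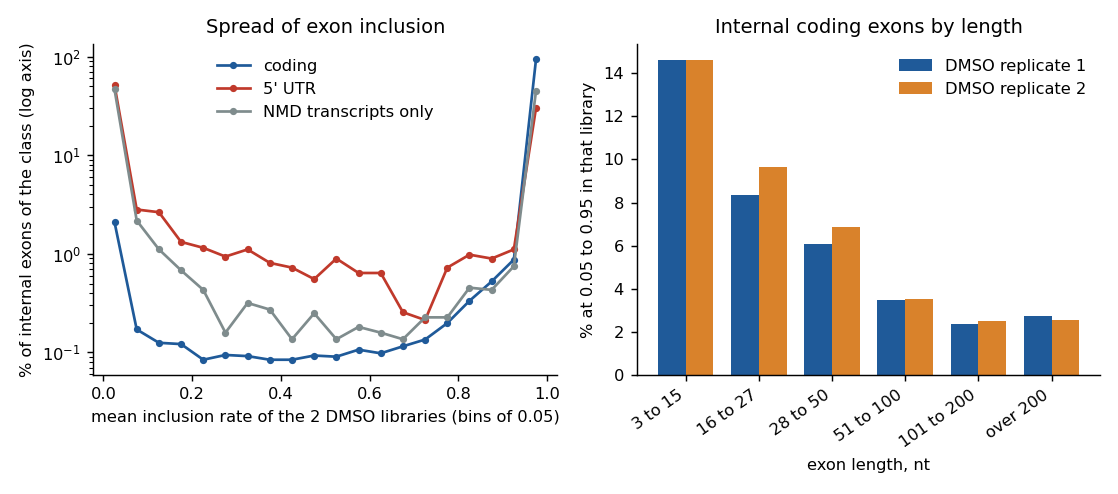
Left, the mean inclusion rate of the 2 DMSO libraries in bins of 0.05 (horizontal axis) against the percent of internal exons of each class (vertical log axis), with lines for coding exons, exons of the 5' UTR and exons of NMD transcripts only. Right, bars give the percent of internal coding exons with Ψ between 0.05 and 0.95 in that library by exon length in nts, and it falls from 14.6% at 3 to 15 nts in both libraries to 2.34% and 2.50% at 101 to 200 nts, with 2.73% and 2.54% over 200 nts.

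Microexons, here exons of up to 15 nts, add a few amino acids and keep the frame where their length is a multiple of 3. The 10 intermediate coding microexons with the most reads were all 6, 9 or 12 nts long. The sequences of 9 of them are shown here from the GRCh37 reference, 5' to 3' on the strand of the gene, with the exon in capitals between the end of the upstream intron and the start of the downstream one, because the exon lies whole between an acceptor ag and a donor gt:
AP2M1 (chr3:183898421-183898450): tgcggcctccagCATCAGgtaagctcttcc
IL18 (chr11:112024306-112024335): ccctcttagCTGAAGATGATGgtaaagtag
DCTN2 (chr12:57932290-57932319): ggaaaccacaagGAGCTGgtaagaagcctg
NSFL1C (chr20:1436347-1436376): ctctgacttaagGAGCAGgtaggtagggca
DNM2 (chr19:10919236-10919265): tattcaaagGGGGAGATCCTGgtaagtaca
MAP4K4 (chr2:102484481-102484509): tgtactgaagGGCGAAGTGgtaagcgcca
RELB (chr19:45513062-45513090): ccttccacagATGAATTGGgtgagtatca
DNM1 (chr9:131002255-131002284): tctttgcagGATGAGATTCTGgtgagtacc
VPS29 (chr12:110937331-110937360): tccactaagGCTGGGCACAGAgtaagtttc

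AP2M1, the medium subunit of the clathrin adaptor AP-2, had 305 inc and 101 exc reads in replicate 1 and 333 and 108 in replicate 2, for a Ψ of 0.602 and 0.607. The 12-nt exon of the cytokine gene IL18 was mostly included, at 0.879 and 0.902. The 6-nt exons of the dynactin subunit DCTN2 (0.172 and 0.214) and of the membrane fusion cofactor NSFL1C (0.121 and 0.163) were mostly skipped. The microexons of the dynamins had a Ψ of 0.350 and 0.426 in DNM2 and of 0.563 and 0.709 in DNM1, and the kinase MAP4K4 had 0.196 and 0.206. RELB, an NF-κB subunit, had the widest gap of the 10, at 0.559 and 0.795 from denominators of 59 and 88. The exon of VPS29, a subunit of the retromer, was at 0.511 and 0.422.

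The 10 exons at 0.2 to 0.8 with the most reads, 1 per gene, included several of RNA-binding proteins. An internal coding exon of 237 nts in the ribosomal protein gene RPL6 (chr12:112846224-112846460) had 1617 inc and 299 exc reads in replicate 1 and 2003 and 417 in replicate 2, for a Ψ of 0.730 and 0.706. Its inclusion reads were mostly at the downstream end, with 1501 and 1816 there and 116 and 187 at the upstream end, so these values do not show that share of transcripts with the whole exon. A 26-nt exon in the 5' UTR of HNRNPC, which binds uridine tracts, was at 0.631 and 0.667. It shares its downstream end, with 614 and 920 reads, with longer forms, so these values are not those of that exon alone. The 39-nt exon of the poly(C)-binding protein PCBP2 (chr12:53861589-53861627) was at 0.652 and 0.643, and the 60-nt exon of HNRNPH1, which binds guanosine runs, was at 0.564 and 0.559. The 129-nt exon of ASPH, which hydroxylates aspartate, had a Ψ of 0.719 and 0.701. A 49-nt 5' UTR exon of MORF4L2 was at 0.358 and 0.304, and a 176-nt exon of the noncoding SNHG29 at 0.227 and 0.286, with 70 and 77 reads at its upstream end and 221 and 262 at the downstream one. In each of these 7 the libraries differed by less than 0.06. The remaining exons of the 10 with the most reads are not annotated as internal exons. The formula, which expects 2 junctions, thus gives no share of transcripts for them. They lie in NPM1 (0.233 ± 0.0148), PKM (0.757 ± 0.0186) and ALDOA (0.518 ± 0.0223), SD, n = 2.

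Of 61 genes known for alternative exons, 56 had a measured internal coding exon and 32 had an intermediate one. Their intermediate exons were 59 of 1005 (5.87%), beside 1.93% of all internal coding exons, and overlapping forms of an exon were counted each. Pairs of mutually exclusive exons of equal length showed which form dominated. In PKM, the 167-nt exon specific to the M2 form of pyruvate kinase (chr15:72494795-72494961) had a Ψ of 0.847 and 0.873, and that of the M1 form (chr15:72495363-72495529) of 0.0951 and 0.0844, from 57 and 72 reads at its upstream end and 261 and 309 at the downstream one. In U2AF1, the small subunit of the factor that recognizes the acceptor AG, the 67-nt exons were at 0.705 ± 0.0253 and 0.309 ± 0.00281 (SD, n = 2). The 194-nt exons of the calcium-binding CALU were at 0.744 ± 0.00609 and 0.278 ± 0.0301, and the 139-nt exons of DNM2 at 0.660 ± 0.0849 and 0.276 ± 0.0579 (SD, n = 2), the lower one with 14 and 22 reads upstream and 5 and 3 downstream. The 76-nt exons of the tropomyosin TPM2 were at 0.682 ± 0.0171 and 0.423 ± 0.0240 (SD, n = 2). In all 5 pairs the same exon was ahead in both libraries.

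Cassette exons of adhesion, trafficking and cytoskeletal genes were also read in this list. The 144-nt exon of NUMB, an adaptor that restrains Notch, was at 0.424 and 0.611 with denominators of 59 and 72. The 24-nt exon of filamin A, FLNA, was at 0.610 and 0.571. A 204-nt variable exon of the hyaluronan receptor CD44 was at 0.0776 and 0.0805, so it was mostly skipped. The 45-nt exon of the myosin light chain MYL6 was mostly skipped too, at 0.131 and 0.140. The amyloid precursor family had a 57-nt exon of APP at 0.352 and 0.373 and a 168-nt exon of APLP2 at 0.182 and 0.159. The 81-nt exon of the kinase MAP3K7 was at 0.341 and 0.204, and the 78-nt exon of PTBP1 at 0.746 and 0.783. The lowest denominators of the list, of 16 and 21 in ARHGEF11, gave 0.625 and 0.524, so single exons of low genes are known only roughly.

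In the 5' UTR, where splicing changes the leader and not the protein, the most deeply read intermediate exon after those of HNRNPC and MORF4L2 was a 52-nt exon of ALDOA. All of its inclusion reads, 345 and 451, were at the downstream end, which it shares with the longer ALDOA exon above, so its 0.502 and 0.534 are no inclusion rate of that exon. The 81-nt exon of ANXA2, at 0.719 and 0.729, had 19 and 15 reads upstream and 262 and 281 downstream. The ribonuclease inhibitor RNH1 had a 173-nt exon at 0.511 and 0.507 with like reads at both ends, 53 and 58 upstream and 66 and 90 downstream. A 107-nt exon of the adhesion gene AMIGO2 was at 0.466 and 0.600, the widest gap among the 10 with the most reads, with 131 and 154 reads upstream and 35 and 29 downstream.

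Exons of NMD transcripts that share no site with a coding exon numbered 2006. Of these 1752 were under 0.05 in both libraries, 100 (4.99%) were intermediate, 21 were over 0.95, and 8.92% had inclusion reads in both. NMD removes part of the transcripts that include such exons, so these rates are those of the RNA that remained. Deeply read ones were in the helicase EIF4A2 (0.270 and 0.310) and in the membrane protein MYOF (0.169 and 0.148). The 107-nt EIF4A2 exon shares its upstream end, with 44 and 60 reads, with a 111-nt noncoding form. Its values are thus not those of that exon alone. In genes of SR proteins and hnRNPs there were 19 such exons in 11 genes, of which 9 had inclusion reads in both libraries and 4 were intermediate. The 276-nt exon of TRA2B was at 0.159 and 0.164, from 23 inc and 61 exc reads in replicate 1 and 27 and 69 in replicate 2. Exons of SRSF11 were at 0.147 ± 0.00646 and 0.0778 ± 0.0230, and 1 of SRSF10, with listed junction reads in replicate 1 at its upstream end alone, at 0.0772 ± 0.0295 (SD, n = 2). The poison exon of SRSF3 was at 0.0150 and 0.0141 with denominators of 997 and 1491, and the longer form in SRSF7 at 0.0228 and 0.0246, so both were rare but read in each library.

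Intron retention was low. It was computed as the unspliced reads at both ends over those reads plus 2 times the split reads. The main set held introns that lie in 1 gene and overlap no annotated exon, with a denominator that reached 20 in both libraries. Of these 31059 introns 91.8% had no unspliced read in either library, the means were 0.00458 in replicate 1 and 0.00371 in replicate 2, and 203 (0.654%) had a retention of at least 0.1 in both. In 66 of the 203 the reads came from 1 end of the intron only. A separate set, added after seeing the data, held 3176 introns whose retention is annotated in the same gene. An annotated exon of any transcript of the gene holds each of them whole, so their unspliced reads may be those of a regular exon. In this set 56.5% had no unspliced read, the means were 0.0452 and 0.0387, and 266 (8.38%) had at least 0.1 in both.

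Short and GC-rich introns had more unspliced reads for their split reads. In the main set the mean retention was 0.00764 and 0.00651 in introns of up to 120 nts and 0.00821 and 0.00647 at 121 to 300 nts. Introns over 10000 nts had a mean retention of 0.00165 and 0.00129. The mean was 0.00288 and 0.00216 at a GC content under 35%, 0.00242 and 0.00162 at 35 to 45%, and 0.0120 and 0.0101 at 60% or more. Length and GC content go together, and among introns of up to 300 nts it was still 0.00406 and 0.00282 under 45% GC and 0.0106 and 0.00903 at 55% or more. First introns had 0.00710 and 0.00520, last introns 0.00534 and 0.00454 and middle introns 0.00354 and 0.00269. In the annotated set these values were 0.0802 and 0.0811 for first, 0.0364 and 0.0331 for last and 0.0320 and 0.0239 for middle introns. The order was the same in both libraries and both sets.

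**Figure D3:**
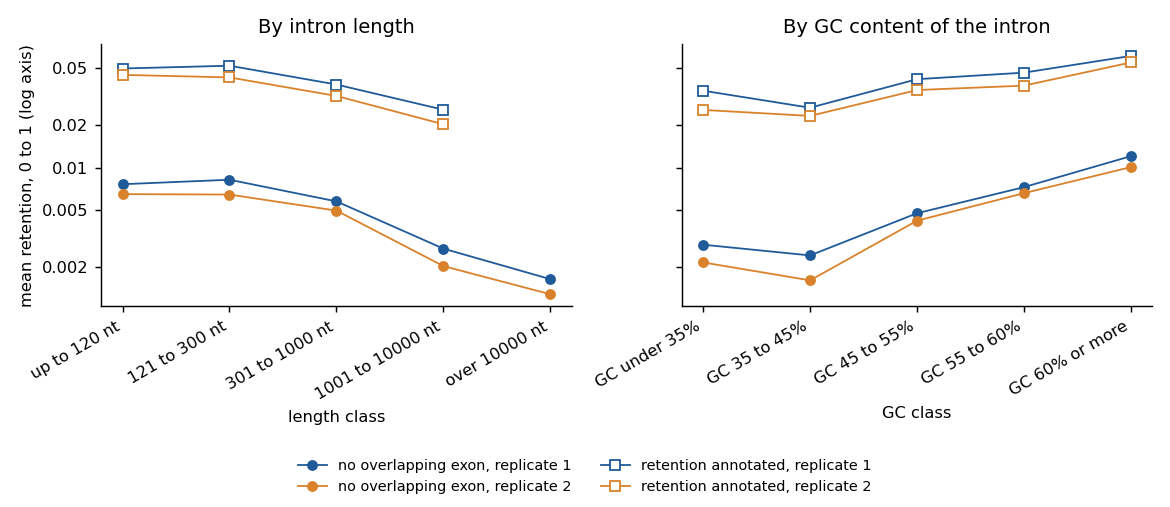
Mean retention per library (vertical log axis) by intron length, left, and by GC content of the intron, right, for introns that overlap no exon (filled circles) and introns whose retention is annotated (open squares). In introns that overlap no exon it rises to 0.0120 and 0.0101 at the highest GC class, and replicate 1 lies above replicate 2 in every class plotted.

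At least 50 unspliced and 10 split reads in each library were found in the main set for 4 introns, 1 per gene. Reads were found at both ends in all libraries in the introns of CACNG7 and ENO1 alone. Intron 3 of CACNG7, a calcium channel subunit (chr19:54417840-54418619), had 90 unspliced reads at the donor, 34 at the acceptor and 51 split reads in replicate 1, and 41, 37 and 49 in replicate 2, for a retention of 0.549 and 0.443. The first intron of NOL7 (chr6:13615856-13615944) had 152 and 212 unspliced reads at the acceptor and none at the donor, and a retention of 0.319 and 0.318. ENO1 intron 9 (chr1:8923402-8923950) had 365 and 382 reads at the donor but 6 and 5 at the acceptor, and 0.0560 and 0.0576. PADI2 intron 6 had 65 and 81 reads at the donor, 10 and 0 at the acceptor, and 0.0349 and 0.0481. In NOL7, ENO1 and PADI2 the unspliced reads were thus almost all at 1 end, so these values do not show the whole intron in the RNA.

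The annotated set held 19 such introns, 1 per gene. NGRN intron 1 was highest (chr15:90809108-90809520), with 52 unspliced reads at the donor, 152 at the acceptor and 14 split reads in replicate 1 and 61, 172 and 15 in replicate 2, for 0.879 and 0.886. MRPL23, a mitochondrial ribosomal protein gene, had 0.493 and 0.469 at an intron outside the canonical transcript. Splicing by other sites of MRPL23 is not in that denominator. LENG8 had 0.566 and 0.596, and HNRNPAB intron 1 had 0.467 and 0.569. In HNRNPAB 12 and 24 unspliced reads were at the donor and 65 and 108 at the acceptor, and by the lower end its mean was 0.269 in place of 0.518. HNRNPH1 intron 3 was at 0.397 and 0.236 and intron 9 of GAS5 at 0.163 and 0.271. CDC37, a cochaperone of HSP90, had 0.195 and 0.0951, the RNA helicase DDX5 0.137 and 0.0818, HNRNPA2B1 0.0644 and 0.0624, and NONO, a paraspeckle protein, 0.0656 and 0.0553. These introns ranged from 74 nts with a GC content of 81.1% in HNRNPAB to 2245 nts in LENG8. The splice sites of a few of them and of CACNG7 are shown in GRCh37 sequence on the gene's strand, to set those of introns with high and low retention side by side. Each donor gives the last 3 bases of the exon and the first 8 of the intron, each acceptor the last 27 bases of the intron and the first 3 of the exon, and capitals mark GT and AG:
CACNG7 intron 3 donor: tgaGTgagggg
CACNG7 intron 3 acceptor: ccctgtctctccccatcccctccccAGaga
NGRN intron 1 donor: gagGTaccggc
NGRN intron 1 acceptor: cttctgccattggttctcttcccccAGcac
HNRNPAB intron 1 donor: gagGTgagcgg
HNRNPAB intron 1 acceptor: ctgacgcgctgtcgccgctggttgcAGgag
HNRNPA2B1 last intron donor: tggGTaagtag
HNRNPA2B1 last intron acceptor: ttttactctttacttctgttgaaacAGgct

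Of 29 genes known for retained introns 24 had a measured intron, and 7 of their 145 introns (in 6 genes) had a retention of at least 0.1 in both libraries. This was 1 of 116 introns in the main set, beside 0.654% of all introns there, and 6 of 29 in the annotated set, beside 8.38%. Of these 6, those of SRSF7, HNRNPDL and RBM39 lie outside the canonical transcript. MAT2A, which makes S-adenosylmethionine, had 50 unspliced reads at the donor, 23 at the acceptor and 51 split reads at intron 7 (chr2:85769870-85770024) in replicate 1 and 27, 20 and 95 in replicate 2, for 0.417 and 0.198. The kinase CLK2 had 0.286 and 0.281 at intron 4. In SRSF7 the introns on both sides of the NMD exon were at 0.787 and 0.722 and at 0.619 and 0.630. They had 5 and 11 and 8 and 10 split reads, while 279 and 416 reads skipped the exon and are not in these denominators. These values are therefore set against splicing to that rare exon and not against all transcripts. The first of the introns had 7 and 4 unspliced reads at the donor and 30 and 53 at the acceptor. By the lower end its mean was 0.425 in place of 0.754. HNRNPDL had 0.826 and 0.782 at an intron outside the canonical transcript with 4 and 6 split reads. RBM39 had 0.224 and 0.120 at an intron beside an NMD exon, or a mean of 0.0870 by the lower end in place of 0.172. That intron had 19 and 22 split reads, while 73 and 122 reads skipped the exon. TAF1D had 0.130 and 0.194. The O-GlcNAc transferase OGT had no unspliced read in any of its 14 measured introns. Its best transcript has 21 junctions, and none of its introns was measured in the annotated set.

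Among alternative acceptors close to each other, a distance of 3 nts was the most frequent. A donor was counted if it had at least 20 split reads in both libraries, and its second acceptor if it took at least 5% of them in both. Of 39271 donors 1473 (3.75%) had a second acceptor, in 1144 genes. Of these 1095 (74.3%) lay over 100 nts from the first and 378 within 100 nts. A skipped exon or another end exon also gives a second acceptor or donor far away, and such pairs were not separated here. At exactly 3 nts there were 184 pairs in 178 genes, 12.5% of all and 48.7% of the 378. The upstream acceptor took more reads in 119 of the 184 (64.7%), and the second site took a median of 25.2%, from 5.43% to 49.8%. Among the pairs 4 to 100 nts apart 106 had a distance that is a multiple of 3, and 39 and 45 left a remainder of 1 and 2. Of 39250 acceptors 1430 (3.64%) had a second donor, in 1159 genes. Of these 229 were within 100 nts, with 5 at 3 nts and 16 at 4 nts, and between 4 and 100 nts the remainders 0, 1 and 2 were found in 122, 64 and 36.

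**Figure D4:**
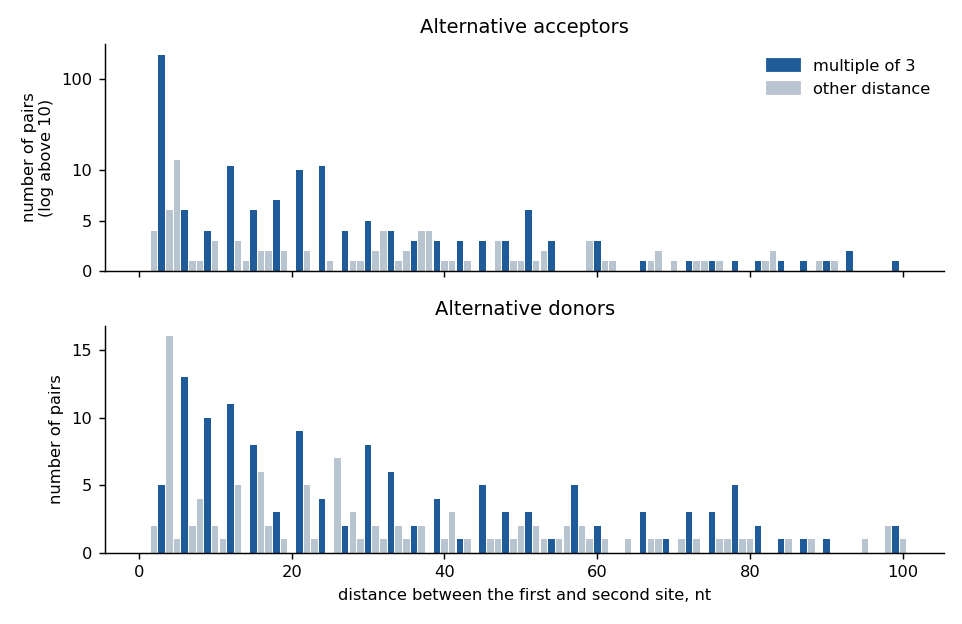
Number of pairs of acceptors, top, and of donors, bottom, by the distance between the first and second site in nts, with multiples of 3 in dark bars. The vertical axis of the top panel is logarithmic above 10 and linear below it. The acceptors peak at 3 nts with 184 pairs, and the donors at 4 nts with 16.

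The base before each AG went with the choice within the 3-nt pairs. Both acceptors were AG in 178 of 184, and the values here are of these. Where the upstream AG followed C (96 pairs) or T (51 pairs), it took a median of 69.9% and 69.3% of the reads. Where it followed A (30 pairs), it took 39.7%. Where the downstream AG followed A (23 pairs), the upstream site took 77.6%, beside 61.9% where it followed C (132 pairs). The interquartile ranges were wide, from 44.3% to 82.5% for an upstream CAG and from 28.5% to 58.96% for an upstream AAG. Pairs with many reads at the second site are shown in GRCh37 sequence on the strand of the gene, with both acceptors in capitals, so that the base before each can be read:
PTMA (chr2:232576574-232576603): gacatggcctgttttctgtcgAGgAGaatg
PCBP2 (chr12:53862538-53862567): gcttgctctcttctgtcttttAGcAGgttt
SHC1 (chr1:154938550-154938579): ctgtagagcctccctttcctcAGcAGgcag
CNBP (chr3:128890117-128890146): cctgtttcttttccttattgtTGaAGcctg
RANBP1 (chr22:20114452-20114481): cactgtgctgcttgtgtttttAGcAGgatc
NOLC1 (chr10:103916920-103916949): gaaattggtccaatctacctcAGcAGgtct
MACROH2A1 (chr5:134696291-134696320): tctgacccttccgtctgtgcaAGaAGaagc

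PTMA, which encodes prothymosin α, had 2273 reads at the downstream acceptor and 232 at the upstream one in replicate 1 and 2692 and 296 in replicate 2, so the upstream site took 9.24% and 9.91%. It is the 1 pair of the 178 in which the upstream AG follows G. In PCBP2 the downstream site took 15.98% and 13.7% and in the adaptor SHC1 34.0% and 41.5%. RANBP1 (47.2% and 38.7%) and NOLC1 (44.7% and 41.2%) used both sites almost alike. In the histone variant gene MACROH2A1 the upstream site took 37.7% and 44.4%. CNBP, a zinc finger protein that binds nucleic acids, used an upstream acceptor ending in TG for 27.2% and 26.2% of the reads.

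Pairs farther apart were in part just as balanced. FDPS, an enzyme of isoprenoid synthesis, had 44.8% and 48.4% at an acceptor 21 nts upstream, and NUSAP1, a spindle protein, 50.5% and 46.9% at 1 lying 45 nts downstream. SERBP1 sent 36.2% and 36.5% to an acceptor 18 nts downstream. The second of the PCBP2 acceptors 12 nts apart took 41.7% and 38.3%, and the first of them ends in TG. That pair is shown because of that end, in GRCh37 sequence with capitals as before:
PCBP2 (chr12:53856251-53856280): ttttttcccctcTGactctctcccAGtccc

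Among donors, HNRNPC sent 41.5% and 41.6% to a second donor 39 nts upstream, from 485 and 344 reads in replicate 1 and 676 and 482 in replicate 2. The histone chaperone NAP1L1 had 33.1% and 32.8% at 28 nts, and HMGA1, a chromatin protein that binds the minor groove, 19.1% and 18.8% at 33 nts. GAS5 had 37.9% and 42.9% at 39 nts and CNBP 52.2% and 44.5% at 21 nts. Donors 4 nts apart, which shift the reading frame where the exon is coding, had the most reads at the second site in SRSF5, whose upstream donor took 35.2% and 26.8%, followed by RNASEK with 13.2% and 21.3%. The downstream donor took 38.9% and 40.0% in NDUFS5, a subunit of respiratory complex I. In BSG the second donor, which begins with GC, took 5.54% and 5.69%, and in LENG8 it took 35% and 54.5% from 14 and 18 reads. The sequences of SRSF5, NDUFS5, RNASEK and BSG are shown, with the first bases of both introns in capitals, as each holds the donors 4 nts apart:
SRSF5 (chr14:70233964-70233993): gtccgGTagGTgagtggctcactttgaggg
NDUFS5 (chr1:39492066-39492095): atcggGTagGTaggggctgcttatgtccgc
RNASEK (chr17:6916072-6916101): atcatGTtgGTgaggggactccccggcaag
BSG (chr19:582574-582603): ctgagGCagGTgcggtgggcgggagctcct

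The 2 libraries were compared gene by gene to learn how far a value from 1 library holds. By the chi-square test of each gene's reads against the totals, with Benjamini-Hochberg adjustment, 2972 of 8304 genes differed, so that percent called was 35.8% (18.1% higher and 17.7% lower in replicate 2). Pearson's r of the log2 RPM was 0.962 across the 8398 genes with reads in both, and genes are not independent replicates. Some of the widest gaps rested on introns listed in 1 library alone. LRP1, a lipoprotein receptor, had 162 and 12 reads, but 13 of its introns were listed in replicate 1 and 1 in replicate 2, and that shared intron had 14 and 12 reads. RERE (152 and 14 reads), CEP250 (142 and 18), THBS3 (134 and 21) and ADAM19 (14 and 105) also passed in the sums and not over the introns listed in both libraries. Each of these genes kept 1 or 2 shared introns with few reads, as in CEP250 with 18 and 18, so not passing there does not show equal levels. Over introns listed in both libraries only, chosen after seeing this, 1568 of 8016 genes (19.6%) differed, and 22 of these differed over 2-fold in place of 579. Such introns must reach the listing minimum in each library, which leaves out wide gaps, so the lower counts follow in part from that choice. The chi-square per degree of freedom was 6.95, so the libraries still differed beyond counting noise. The share called rose with depth, from 0.648% at a mean of 10 to 30 reads to 60.6% at 1000 or more, while the SD of the log2 ratio fell from 0.39 to 0.24.

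Over the introns listed in both libraries, the 10 widest gaps were all of genes higher in replicate 1. The growth factor IGF2 had 118 and 49 reads (log2 ratio of replicate 2 over replicate 1 of -1.42) and PCK2, a mitochondrial enzyme of gluconeogenesis, 246 and 109 (-1.33). COL1A1 had 129 and 59 (-1.28), AKR1C2 810 and 397 (-1.18), SCD, a desaturase of fatty acids, 1871 and 938 (-1.15), and DDIT4, a stress-induced brake on mTOR, 428 and 233 (-1.03). The genes higher in replicate 2 included CBX8 with 36 and 79 reads (0.98), the histone methyltransferase SUV39H2 with 47 and 103 (0.98), the HSP90 cochaperone CHORDC1 with 420 and 909 (0.96) and the HSP40 gene DNAJB1 with 102 and 206 (0.86). All of these passed an adjusted p of 0.05 in the chi-square test.

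Some of the lists leaned to one library, and no test of a list was run. Of 19 chaperone genes tested over shared introns, 11 were higher and 1 lower in replicate 2, with a median log2 ratio of 0.24, beside -0.02 over all genes, of which 10.0% were called higher and 9.53% lower. HSP90AA1 (12515 and 21684 reads, 0.64), HSPA8 (6033 and 10555, 0.66) and all 5 subunits of the cytosolic chaperonin in the list, CCT2, CCT3, CCT5, CCT8 and TCP1 (0.24 to 0.29), were higher, as were the mitochondrial HSPD1 (0.29) and HSPE1 (0.38), while the mitochondrial HSPA9 did not pass (0.04). In the endoplasmic reticulum CALR was higher (0.11) and HSP90B1 lower (-0.12), and HSPA5, CANX, PDIA3, PDIA4, PDIA6 and P4HB did not pass, at -0.09 to 0.02. Of 22 NRF2 targets 1 was higher, TXNRD1 (0.09), and 12 were lower, with a median of -0.20, among them TKT (-0.39) and AKR1C2. Of 13 SR protein genes 5 were higher, SRSF3 (0.28), SRSF6 (0.41), SRSF7 (0.42), SRSF10 (0.31) and TRA2B (0.27), and SRSF5 was lower (-0.33). Other lists were mixed, with 3 higher and 3 lower of 14 glycolytic genes, 10 and 6 of 21 cytoskeletal genes, and 3 and 5 of 22 hnRNP genes. These are abundant genes, whose share called is far above that of all genes, and the part that depth plays in the counts was not tested. The lists were picked with results of these data known, and the cultures of the 2 libraries cannot be told apart from their library preparation.

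**Figure D5:**
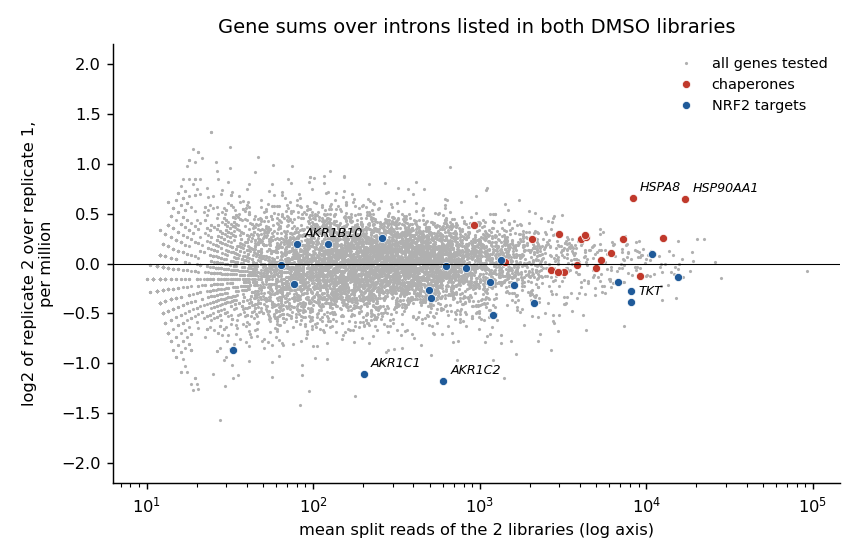
Log2 ratio of replicate 2 over replicate 1 (vertical axis, RPM over introns listed in both libraries) against the mean split reads of the 2 libraries (horizontal log axis), with 1 point per gene. Chaperone genes in red lie mostly above 0, with HSPA8 at 0.66 and HSP90AA1 at 0.64, and NRF2 targets in blue mostly below, with AKR1C2 at -1.18.

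A smaller share of exons and introns than of gene sums passed the test between the libraries, with far fewer reads behind each value, and genes at a mean of 10 to 30 reads over shared introns passed in 0.648% as well. By Fisher's exact test of inc and exc reads, two-sided and adjusted, 82 of 11285 exons with skipping and inclusion reads differed (0.727%), 0.213% being higher and 0.514% lower in replicate 2, and so did 15 of the 4800 intermediate exons (0.3125%). Intermediate exons, and those at 0.2 to 0.8, were chosen by their Ψ in both libraries. This leaves out exons with the widest gaps, so their agreement is in part set by that choice. Among exons at 0.2 to 0.8 in both libraries, the median absolute difference in Ψ was 0.0947 at a lower denominator of 10 to 20. It was 0.0358 at 300 or more, where the 95th percentile was still 0.129. The widest gaps had few reads, as in PPP2R5C, with 0 inc and 11 exc reads in replicate 1 and 13 and 0 in replicate 2, and NBPF12, a member of a repeated family, with 14 and 0 against 0 and 6. Of exons whose denominator reached 100 in both libraries, 22 passed. The 113-nt coding exon of DGUOK, a mitochondrial kinase of deoxynucleosides, was at 0.324 and 0.145, the 101-nt exon of OLA1 at 0.833 and 1, and a 28-nt end exon of the metallothionein pseudogene MT1L at 0.792 and 0.547.

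For introns, the same test of unspliced against split reads called 16 of 2545 in the main set (0.629%), 14 of them lower in replicate 2 (0.55%) and 2 higher (0.0786%). MAT2A intron 7 was among the 16 (0.417 and 0.198, adjusted p = 0.0115 by Fisher's exact test), as were introns of YTHDC1 (0.109 and 0) and UHRF1 (0.107 and 0). With the reads of the lower end of each intron in place of both, 1 differed. In the annotated set it called 41 of 1381 (2.97%), 33 lower in replicate 2 (2.39%) and 8 higher (0.579%). Summed over annotated introns of the main set, unspliced reads were 3.43 per 1000 of the denominator in replicate 1 and 2.63 in replicate 2, and 16.2 and 13.5 in the annotated set, so both sets had fewer unspliced reads in replicate 2. For alternative acceptors the test called 1 of 1473 (0.0679%), SNRPB, whose second acceptor took 35.5% and 51.2%, and 86 had an unadjusted p under 0.05. For donors it called 1 of 1430 (0.0699%), DGUOK, at 36.1% and 9.91%, and 62 had an unadjusted p under 0.05. The DGUOK donors lie 11970 nts apart, so this may be the skipping of the 113-nt DGUOK exon above, seen again. The median absolute difference of the second share was 4.76 percentage points for acceptors and 4.56 for donors. Second sites needed a share of at least 5% in both libraries, which also leaves out wide gaps.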

How the data were processed

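Poly(A)+ RNA of A549 cells given DMSO was sequenced in 2 libraries. Per the submitters' notes, alignment used STAR 2.7.3a and the GRCh37 build, while the methods of the study name another version of STAR. The authors derived the deposited tables with IPSA. The deposited values are raw counts in a text field: inc, exc and ret for exons, and split and unspliced reads for introns, and no sign of normalization was found in the files. The unit was recorded as other. No group has more than 2 libraries, and no treatment was compared.

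Positions were matched to GENCODE release 44 lifted to GRCh37, and sequences were read from the GRCh37 genome. Genes took the split reads of introns assigned to 1 gene (99.2%), with at least 10 in both libraries. A Ψ denominator of at least 10, a retention denominator of at least 20 and at least 20 split reads per site were required in both. Depth limits precision as given beside each value, and tests and intervals of counts cover counting error only, since reads without molecular identifiers are not independent molecules. Gene sums were compared between the libraries by a chi-square test, exons, introns and sites by Fisher's exact test, with Benjamini-Hochberg adjustment at 0.05 (Python 3.11.15, SciPy 1.17.1, pandas 2.3.3, pysam 0.24.0, bedtools 2.31.1), and the tests were tested on simulated data.

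The members and gene lists were chosen with earlier results of these data known. Genes were named by rule: the 20 highest sums and 10 highest levels, list members, the introns, exons and sites with the highest retention or reads, 1 per gene, and the widest gaps between the libraries (genes with a mean of at least 50 reads). Microexons, exons of 5' UTRs, NMD exons, lncRNAs, introns whose retention is annotated, donors 4 nts apart and the exons and genes that differed over shared introns were named after their values were seen, by the most reads, the highest level or the widest gap. Some genes that these rules name are not reported here. The alternatives tried concern assignment, scaling, filters, overlaps, the share of the second site and single libraries.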

Additional observations from a re-analysis of the deposited data

How the results depend on the processing

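No paired analysis was possible because only the 2 libraries of 1 condition were described and no groups were compared. Counts that need a value in both libraries rise when 1 library is used alone: genes to between 8704 and 8730, intermediate exons to between 7355 and 8016, introns at a retention of 0.1 to between 441 and 541, donors with a second acceptor to between 2184 and 2423 (within 100 nts 536 and 586, at 3 nts 235 and 239), and acceptors with a second donor to between 2170 and 2377 (within 100 nts 331 and 351). Genes at a level of 100 came to between 185 and 198. With 1 exon per overlapping set 2212 exons were intermediate and 48 differed between the libraries, by construction from fewer exons. With introns listed in both libraries only, 1568 genes differed. Retention depended most on the filters: 55 introns reached 0.1 at a denominator of 50, 3014 without the filter on overlap and 70 by the lower of the 2 ends, and 177 introns differed between the libraries without that filter, 1 by the lower end and 41 among introns whose retention is annotated. With at least 50 split reads, fewer sites being tested, there were 605 second acceptors, 170 within 100 nts and 83 at 3 nts, and 621 second donors, 114 within 100 nts. Then 2 acceptors and 2 donors differed. With annotated introns alone, 2 donors differed, and with a second share of at least 10% the count was 0 by Fisher's exact test, and 48 of 1083 had an unadjusted p under 0.05.

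The report holds 2 libraries, so each SD rests on 2 values and no library can be called an outlier. Counts below the listing minimum are unknown, which lowers sums of long genes with few reads. Under the lower of the 2 ends 16 named introns moved by more than 1 SD and 10 did not, and with the median over introns as the junction average 8 of 10 levels moved, among them PPIA from 669 to 9.18 and FTH1 from 1147 to 751. The median takes in rare annotated introns by construction.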

Other observations

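Introns that match no annotated site numbered 702, with 0.374% and 0.371% of the split reads. Of 98 introns in the region that the sex chromosomes share, 96 had equal counts at both copies, so the same reads were counted at both.

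Introns with a U12-type donor, defined by the first 8 bases ATATCCTT or GTATCCTT on the strand of the gene, numbered 315 of the 84927. The deepest was in RPL4 (chr15:66795088-66795396, donor aacGTATCCTT with the motif in capitals), with 2145 and 2290 split reads, 8 and 3 unspliced reads at the donor and 13 and 12 at the acceptor. That of EIF3K had 464 and 617 split reads and no unspliced read, and the AT-AC intron of HSBP1 (donor gaaATATCCTT) 311 and 400 and none. Of 113 introns with such a donor in the set that overlaps no exon, 86.7% had no unspliced read in either library, beside 91.8% of all introns of that set, and their mean retention was 0.00307 and 0.00810.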
